A study of Mus musculus with 20 samples.

Results

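Extracellular matrix transcripts were followed in the brains of mice with severe spinal muscular atrophy (SMA). The genes described are 10 of the 45700 genes in the deposited table: the fibrillar collagen genes Col1a1, Col1a2, Col3a1 and Col5a2, the basement membrane genes Col4a1, Col4a2, Lama4 and Nid1, and the matrix glycoprotein genes Sparc and Fn1. They were taken by name, and each matched 1 protein-coding row. These members and the gene lists used below were chosen with earlier results of these data known. Counts of calls above the share over all genes are therefore descriptions and no independent evidence. All 10 were above 0 in all 20 libraries, and all 10 entered the tests, which covered the 15247 genes whose mean over the libraries reached 1 FPKM.

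Brains were collected from "Taiwanese" SMA mice (Smn-/-; SMN2tg/0) and from heterozygous littermates (Smn-/+; SMN2tg/0), which served as phenotypically normal controls. Both genotypes therefore carried the human SMN2 transgene, and the strain background was FVB in both. Brains were taken on postnatal day 5, the early-symptomatic stage, and on day 7, the late-symptomatic stage. Lysates were run on sucrose gradients, and RNA was sequenced from all pooled fractions (total cytoplasmic RNA) or from polysomal fractions only. Per genotype and fraction there were 2 libraries on day 5 and 3 on day 7, which gives 20 libraries, and the labels do not say whether a total and a polysomal library with the same number came from 1 brain. A whole brain was used, so fewer cells of a type and less RNA per cell cannot be told apart in any result given here. The mouse Smn1 transcript lay between 8.61 and 17.49 FPKM over the 20 libraries, and the genotypes overlapped in all 4 pairs of groups. The null allele of this model lacks only part of Smn1, so a value over the whole gene does not check the genotype labels.

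Fibrillar collagens are trimeric proteins that assemble into the tensile fibres of connective tissue. Col1a1 and Col1a2 encode the chains of type I collagen, Col3a1 encodes type III collagen, and Col5a2 encodes a chain of type V collagen, which regulates fibre assembly. In the brain these fibres are largely restricted to the meninges and the walls of larger vessels. Basement membranes are thin sheets under endothelial cells and around the brain surface. Their network of type IV collagen is encoded chiefly by Col4a1 and Col4a2, whose products form one trimer, while Lama4 encodes the laminin alpha chain typical of endothelium and Nid1 encodes nidogen, which links the laminin and collagen networks. Sparc encodes a collagen-binding matricellular protein, and Fn1 encodes fibronectin, an adhesive glycoprotein of plasma and matrix.

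The basement membrane genes Col4a1 and Col4a2 lie head to head on chromosome 8, where the deposited table gives them one merged locus (GRCm38, chr8:11187754-11449287) on opposite strands. Col1a2 lies at chr6:4504813-4541543 on the plus strand, and Col3a1 at chr1:45311537-45349706 on the plus strand, beside Col5a2 at chr1:45374320-45503282 on the minus strand. Col1a1 lies at chr11:94936223-94953042 on the plus strand, and Sparc at chr11:55394499-55420080 on the minus strand. Lama4 lies at chr10:38965514-39110188 on the plus strand, Nid1 at chr13:13437601-13512275 on the plus strand, and Fn1 at chr1:71585519-71662843 on the minus strand. Promoter windows from 250 bases before to 50 bases after the start site were taken from RefSeq (GRCm38.p6) and matched 6 of the 10 genes (Col1a2, Col3a1, Col4a1, Col4a2, Nid1 and Sparc). The windows of Col4a1 (chr8:11312777-11313076, minus strand) and Col4a2 (chr8:11312555-11312854, plus strand) share 78 bases, and their start sites are 21 bases apart. They are shown because these 2 starts lie so close together, while the levels of both genes are compared below. The windows of Col1a2 (chr6:4505368-4505667, plus strand) and Col3a1 (chr1:45311288-45311587, plus strand) are shown beside them as the fibrillar genes that had a window. Capitals mark matches, on either strand, to 3 short motifs known from many promoters. The first is the GC box, spelled GGGCGG. The next is the pentamer CCAAT. The last is TATAAA, the core of the TATA box. The sequences run 5′ to 3′ on the strand of the gene.
Col4a1: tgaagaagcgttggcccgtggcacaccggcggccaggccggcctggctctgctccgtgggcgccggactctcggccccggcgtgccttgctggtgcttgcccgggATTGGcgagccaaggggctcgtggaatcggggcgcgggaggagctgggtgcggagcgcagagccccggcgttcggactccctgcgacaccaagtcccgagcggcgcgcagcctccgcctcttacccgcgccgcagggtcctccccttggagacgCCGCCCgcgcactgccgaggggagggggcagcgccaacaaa
Col4a2: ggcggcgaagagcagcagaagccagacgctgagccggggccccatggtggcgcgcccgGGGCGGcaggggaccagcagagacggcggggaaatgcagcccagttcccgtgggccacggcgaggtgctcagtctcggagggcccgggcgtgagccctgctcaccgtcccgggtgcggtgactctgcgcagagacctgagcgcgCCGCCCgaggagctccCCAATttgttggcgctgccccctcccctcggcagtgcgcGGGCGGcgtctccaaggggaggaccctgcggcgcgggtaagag
Col1a2: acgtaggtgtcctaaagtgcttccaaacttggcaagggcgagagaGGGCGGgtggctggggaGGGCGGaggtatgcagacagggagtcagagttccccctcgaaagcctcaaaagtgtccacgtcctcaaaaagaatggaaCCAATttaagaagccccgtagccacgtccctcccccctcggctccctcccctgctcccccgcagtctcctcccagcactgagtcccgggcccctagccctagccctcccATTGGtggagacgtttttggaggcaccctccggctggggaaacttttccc
Col3a1: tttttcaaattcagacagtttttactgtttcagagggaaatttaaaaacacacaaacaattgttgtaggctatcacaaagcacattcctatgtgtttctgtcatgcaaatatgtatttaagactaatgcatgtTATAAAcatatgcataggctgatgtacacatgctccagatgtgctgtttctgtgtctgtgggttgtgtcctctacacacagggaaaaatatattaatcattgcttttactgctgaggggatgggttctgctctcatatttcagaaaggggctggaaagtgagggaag
The Col4a1 window held 1 GC box and 1 CCAAT match and was 74% G or C, and that of Col4a2 held 3 GC boxes and 1 CCAAT match and was 73.7% G or C. The Col1a2 window held 2 GC boxes and 2 CCAAT matches at 61% G or C. The Col3a1 window, at 37.7% G or C, held none of either and 1 TATA match. Of the Nid1 and Sparc windows, that of Nid1 held 1 GC box and 1 CCAAT match, and that of Sparc held none of the 3 motifs. Over 27025 gene promoters of the same length, 35.9% held a GC box, 37.9% a CCAAT match and 14.2% a TATA match, and the median G or C content was 52.7%. These matches describe letters in the window only.

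Values in the deposited table are FPKM, that is, fragments scaled to transcript length and to the mapped fragments of the library, so levels of different genes can be compared per length. The depth behind each value is unknown, because the table holds no counts. Summed over all genes, FPKM lay between 790791 and 997685 in the total libraries and between 571462 and 657670 in the polysomal libraries, where protein-coding genes took 72.7% to 83.4% of the sum against 45.5% to 61.6% in total RNA. Sparc was the most abundant of the 10 transcripts, with a median of 116.6 FPKM over 20 libraries and a lowest value of 90.72 FPKM, above the highest value of any other member. Col1a2 (median 24.18 FPKM), Col3a1 (18.79 FPKM) and Col1a1 (17.01 FPKM) came next, with ranges that overlapped each other. Fn1 (10.75 FPKM), Nid1 (8.95 FPKM), Col4a1 (8.02 FPKM) and Col4a2 (7.84 FPKM) followed, and Lama4 (3.98 FPKM) and Col5a2 (3.59 FPKM) were the lowest. Below Sparc, the ranges of each pair of neighbours in this order overlapped. Col1a1 varied most among libraries, with a highest value 5.12 times the lowest, and Nid1 least, at 1.98 times.

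**Figure D1:**
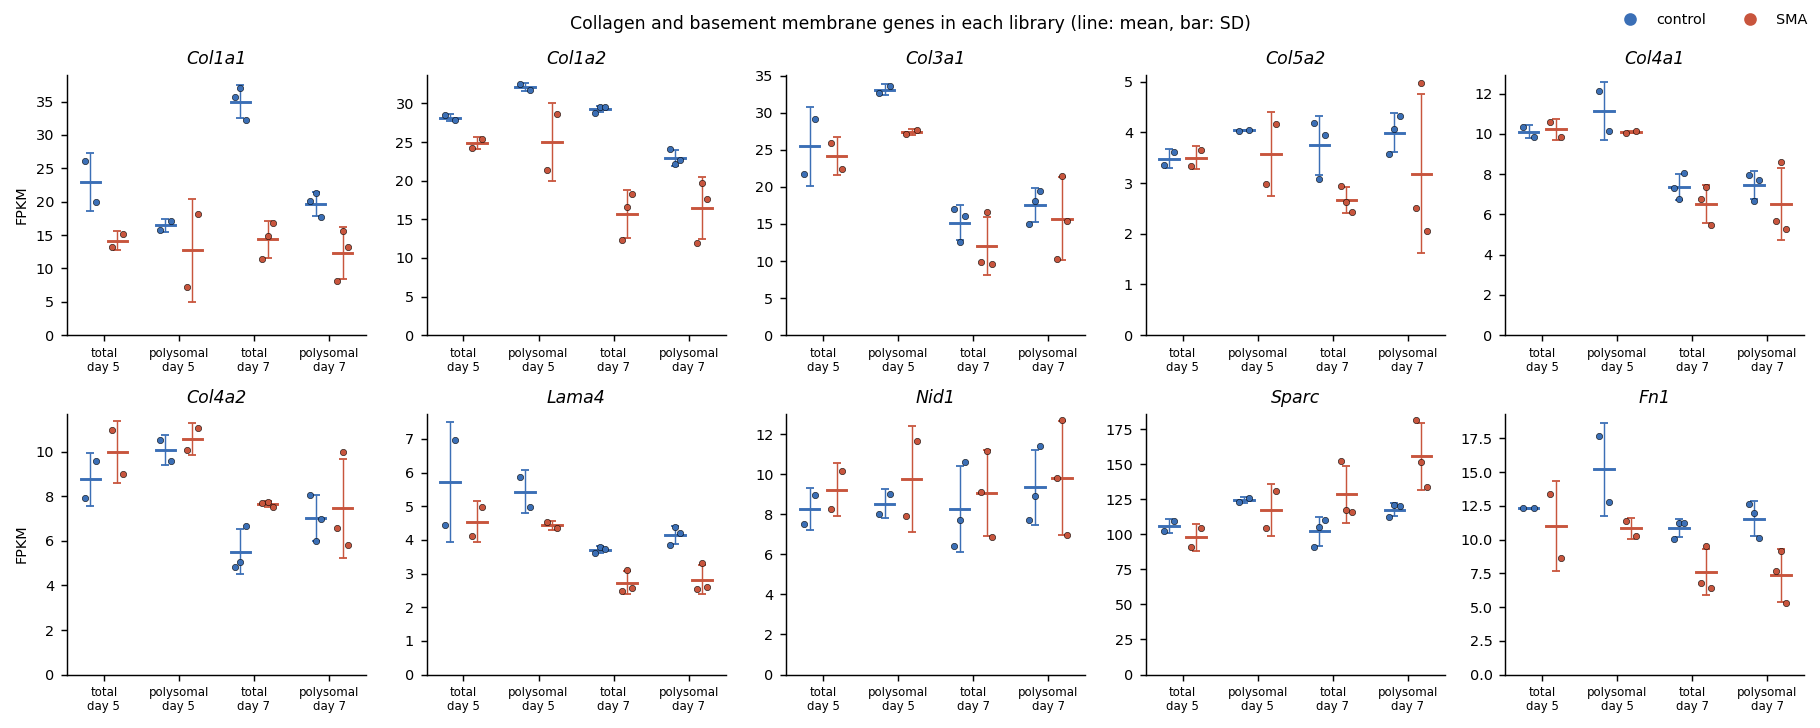
FPKM (y axis) of the 10 genes in each of the 20 libraries, by fraction and stage (x axis), with controls in blue and SMA mice in red. Points are libraries, lines are means and bars are SD (n = 2 on day 5 and n = 3 on day 7); Col1a1 in late total RNA lies between 32.19 and 36.97 FPKM in controls and between 11.37 and 16.85 FPKM in SMA mice.

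Some SMA polysomal libraries stood apart from the others of their group. Among the late-symptomatic ones, replicate 2 had the highest value for 9 of the 10 members, with Sparc as the exception. Among the early-symptomatic ones, replicate 1 had 7.22 FPKM of Col1a1 against 18.19 FPKM in replicate 2. The counts of members called are given with and without them where they change. For the early genotype comparisons, log2 changes are given instead. Nothing in the labels says whether mice of a group came from different litters, and p-values measure the spread between these brains.

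Type I collagen transcripts were lower in late-symptomatic SMA brains than in controls. A gene is called, or passes the test, where its unadjusted limma p is under 0.05. The p adjusted over all tested genes is given beside the main results of the members. For genes of other lists it is printed for some only, and a call there does not mean an adjusted p under 0.05. In total RNA, Col1a1 had 35.67, 36.97 and 32.19 FPKM in the 3 controls and 11.37, 14.93 and 16.85 FPKM in the 3 SMA brains. The genotypes did not overlap, and Col1a1 was 2.45-fold lower in SMA (log2 change −1.29 ± 0.16 (SE, n = 3 per genotype), limma adjusted p = 0.128). Col1a2 had 28.83, 29.5 and 29.54 FPKM in controls and 12.3, 16.62 and 18.34 FPKM in SMA, a 1.88-fold difference without overlap (log2 change −0.91 ± 0.15, limma adjusted p = 0.232). Both chains of type I collagen thus had all 3 SMA brains below all 3 controls. Some bone genes (Bglap, Ibsp and Sp7) were also lower in these SMA libraries and the more abundant Alpl overlapped, with the values given among the markers. Col5a2 ran from 3.08 to 4.19 FPKM in controls and from 2.42 to 2.94 FPKM in SMA (log2 change −0.47 ± 0.15, limma adjusted p = 0.45). Col3a1 did not pass the test, at 16.96, 12.53 and 16.05 FPKM in controls and 9.88, 16.59 and 9.67 FPKM in SMA (log2 change −0.36 ± 0.25, limma adjusted p = 0.69). Its SMA replicate 2 lay inside the range of the controls. The calls of Col1a1 and Col1a2 were kept without any 1 of the 6 libraries, with log2 changes from −1.41 to −1.13 and from −1.03 to −0.74. Without SMA replicate 2, Col3a1 passed (−0.62). The call of Col5a2 was lost without control replicate 1 or 3 or without SMA replicate 2 or 3.

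The basement membrane genes did not move together in late-symptomatic total RNA. Lama4 had 3.61, 3.8 and 3.73 FPKM in controls and 2.49, 3.12 and 2.58 FPKM in SMA, without overlap (log2 change −0.44 ± 0.11, limma adjusted p = 0.344). Col4a2 went the other way, with 4.84, 5.06 and 6.67 FPKM in controls and 7.7, 7.77 and 7.53 FPKM in SMA (log2 change 0.48 ± 0.14, limma adjusted p = 0.404). The SMA libraries of Col4a2 were all above the controls, and the call was lost without control replicate 2 (log2 change 0.42). Its partner Col4a1 had 7.31, 6.75 and 8.05 FPKM in controls and 6.75, 7.36 and 5.5 FPKM in SMA, which overlapped (log2 change −0.18 ± 0.14, limma adjusted p = 0.717). The 2 genes overlap at their start sites on opposite strands. The study's methods state default settings for its programs, which for TopHat and Cufflinks means counting without strand. Reads from the stretch that both genes cover therefore cannot be told apart. By the RefSeq start sites, which are 21 bases apart, this stretch is short beside longest transcripts of 6615 bases (Col4a1) and 6450 bases (Col4a2). Its effect on these values was not tested. Nid1 ranged from 6.42 to 10.63 FPKM in controls and from 6.87 to 11.15 FPKM in SMA (log2 change 0.13 ± 0.26, limma adjusted p = 0.904).

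The matrix glycoproteins also differed in direction. Fn1 in late total RNA had 10.08, 11.21 and 11.27 FPKM in controls and 6.82, 9.52 and 6.4 FPKM in SMA, without overlap (log2 change −0.53 ± 0.17, limma adjusted p = 0.44). The call of Fn1 was lost without control replicate 2 or 3 or without SMA replicate 1 or 3. Sparc had 90.72, 105.48 and 110.06 FPKM in controls and 152.19, 117.63 and 115.66 FPKM in SMA, which did not overlap but did not pass the test (log2 change 0.32 ± 0.14, limma adjusted p = 0.54). In all, 5 of the 10 members were called lower in late total RNA, where 4.7% of the 15247 genes tested were called lower, and 1 was called higher, where 4.84% were. At an adjusted p under 0.05, 0 of the 10 members passed. Genotypes did not overlap for 7 of 10 members, against 15% of all tested genes. The choice of members, made with earlier results of these data known, may itself raise these counts above the shares of all genes. The median log2 change of the 10 was −0.40, beside 0.00 over all tested genes.

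**Figure D2:**
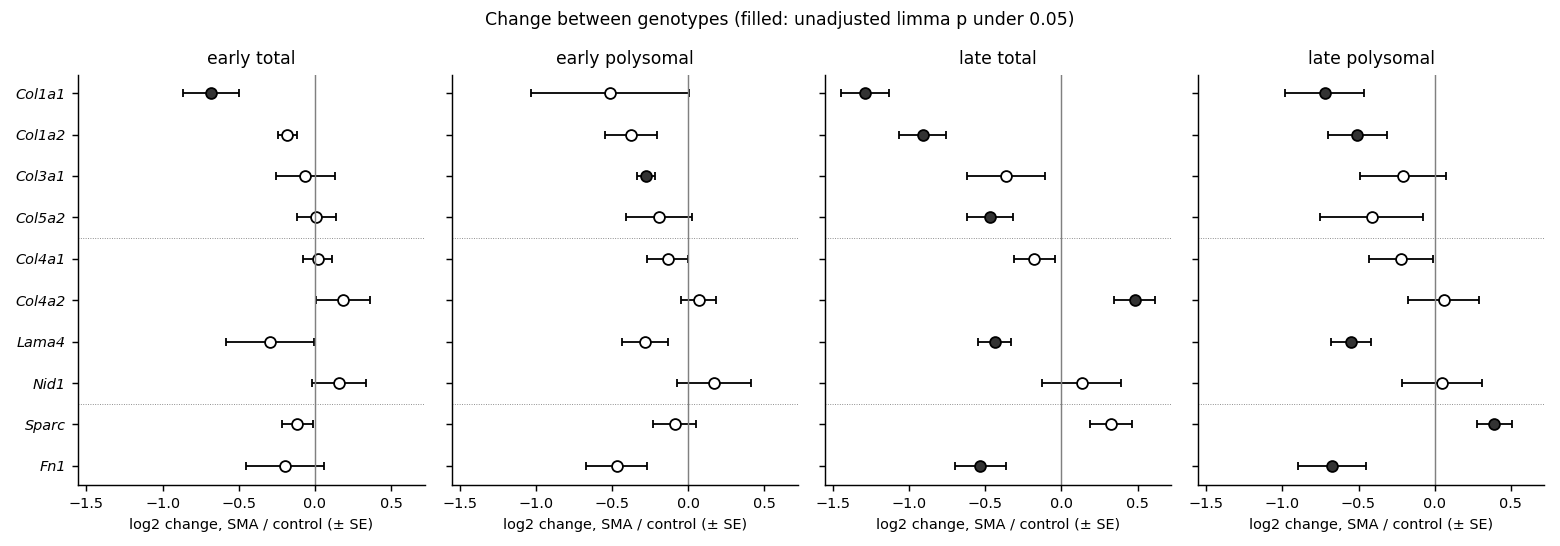
Change between genotypes for the 10 genes (y axis) as log2 of SMA over control (x axis, ± SE), in total and polysomal RNA of the early- and late-symptomatic stage; filled points had an unadjusted limma p under 0.05, and dotted lines part fibrillar, basement membrane and glycoprotein genes. Col1a1 in late total RNA lies farthest from 0, at −1.29.

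In polysomal RNA of the late-symptomatic stage, the type I collagen genes, Lama4 and Fn1 were again lower in SMA and Sparc was higher. Col1a1 had 20.1, 21.24 and 17.74 FPKM in controls and 8.07, 15.62 and 13.27 FPKM in SMA (log2 change −0.72 ± 0.26, limma adjusted p = 0.431). Col1a2 had 24.07, 22.12 and 22.67 FPKM in controls and 11.96, 19.72 and 17.68 FPKM in SMA (log2 change −0.51 ± 0.20, limma adjusted p = 0.459). In both genes the SMA libraries lay below all controls, with replicate 1 the lowest. Lama4 had 3.86, 4.37 and 4.22 FPKM in controls and 2.55, 3.32 and 2.59 FPKM in SMA (log2 change −0.55 ± 0.13, limma adjusted p = 0.297). Fn1 had 12.62, 11.94 and 10.14 FPKM in controls and 7.66, 9.16 and 5.27 FPKM in SMA (log2 change −0.67 ± 0.22, limma adjusted p = 0.415). Sparc had 112.4, 120.62 and 119.93 FPKM in controls and 181.31, 151.46 and 133.91 FPKM in SMA (log2 change 0.39 ± 0.12, limma adjusted p = 0.371). These 5 genes were the members whose genotypes did not overlap, against 16.1% of all tested genes.

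Called lower were thus 4 of 10 members in late polysomal RNA, where 5.38% of genes tested were, and called higher was 1, where 5.35% were. The choice of members may raise these counts as well. Adjusted p-values lay between 0.297 and 0.982 over the 10. The remaining members gave log2 changes of −0.21 ± 0.29 for Col3a1, −0.41 ± 0.34 for Col5a2, −0.22 ± 0.21 for Col4a1, 0.06 ± 0.24 for Col4a2 and 0.05 ± 0.26 for Nid1. Without SMA replicate 2, the count of members called rose to 7, with Col5a2 at −0.78 and Col4a1 at −0.43 among those lower. Without control replicate 1 it was 1, without control replicate 2 it was 2, and without control replicate 3 or SMA replicate 3 it was 3. The shares of 5.38% and 5.35% are those of the fit on all 6 libraries. Lama4 passed the test without any 1 of the 6 libraries, and Col1a1 and Col1a2 lost their calls without any 1 of the 3 controls or without SMA replicate 3. Fn1 lost its call without control replicate 1 or 2 or SMA replicate 1, and Sparc without control replicate 1.

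At the early-symptomatic stage the differences were fewer. In total RNA, Col1a1 had 26.06 and 19.88 FPKM in controls and 13.15 and 15.21 FPKM in SMA (log2 change −0.68 ± 0.18 (SE, n = 2 per genotype), limma adjusted p = 0.551). Col1a2, at 28.48 and 27.88 FPKM in controls and 24.29 and 25.44 FPKM in SMA, did not overlap but did not pass the test (log2 change −0.18 ± 0.06, limma adjusted p = 0.551). The other 8 members gave log2 changes from −0.30 to 0.19. Thus 1 of 10 members was called lower, where 3.89% of genes were, and 0 were called higher, where 4.36% were. Leaving out 1 library leaves an arm of 1, so only sizes are given. Col1a1 gave −0.49 without control replicate 1, −0.58 without SMA replicate 1 and −0.79 without SMA replicate 2.

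In early polysomal RNA, Col3a1 was the member that passed, with 32.61 and 33.65 FPKM in controls and 27.08 and 27.63 FPKM in SMA (log2 change −0.28 ± 0.06, limma adjusted p = 0.385). Its 2 SMA libraries lay below both controls. Without SMA replicate 1 or 2, Col3a1 gave −0.26 or −0.29. Col1a1 had 15.7 and 17.17 FPKM in controls and 7.22 and 18.19 FPKM in SMA, so that the SMA libraries lay on either side of the controls (log2 change −0.51 ± 0.52, limma adjusted p = 0.632). Col1a2 (−0.37 ± 0.17) and Fn1 (−0.47 ± 0.20) did not pass either, with a limma adjusted p = 0.438 for Col1a2 and adjusted p = 0.43 for Fn1. Called lower was 1 of 10 members, where 6.82% of genes were, and called higher were 0, where 5.65% were. Without SMA replicate 2, which leaves 1 SMA library assumed to vary like the controls, Col1a1 gave −1.17 and Col1a2 gave −0.58. Without SMA replicate 1 instead, the direction of Col1a1 turned (0.15), and Col1a2 gave −0.17. Non-overlap is common with 2 brains per genotype: it held for 2 members against 47.6% of genes in total RNA, and for 5 members against 50.5% in polysomal RNA.

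Whether the genotype effect itself differed between stages was tested as an interaction. In total RNA the effect was larger at the late stage for Col1a1 (difference of log2 changes −0.61 ± 0.26, limma adjusted p = 0.486) and Col1a2 (−0.73 ± 0.21, limma adjusted p = 0.486). These were 2 of 10 members, where 10.1% of genes passed, so the count was near the background. Col5a2 (−0.48 ± 0.21) and Sparc (0.44 ± 0.20) did not pass, with a limma adjusted p of 0.486 each. In polysomal RNA only Sparc passed (0.48 ± 0.19, limma adjusted p = 0.355), or 1 of 10 members, which is near the 13.7% of genes that did. Of these, the Col1a2 call was kept without any 1 of the 10 libraries, while those of Col1a1 and Sparc were each lost in 8 of 10 such fits. Of 8 other settings, the call of Col1a2 was kept in 8, that of Sparc was lost in 3 and that of Col1a1 in 7.

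Fibrillar and basement membrane transcripts were then set side by side within each library, as the mean log2(FPKM + 0.1) of the 4 fibrillar collagens minus that of the 4 basement membrane genes. This is a description, with no test over the members. In late total RNA the difference was 1.61, 1.34 and 1.20 in controls and 0.44, 0.61 and 0.82 in SMA, with means of 1.38 ± 0.21 and 0.62 ± 0.19 (SD, n = 3). The fibrillar mean accounted for this gap of −0.76, since it differed between genotypes by −0.76 and the basement membrane mean by 0.00. In late polysomal RNA the difference was 0.93, 1.11 and 0.92 in controls and 0.35, 0.79 and 0.93 in SMA, which overlapped, with a gap of −0.30. In early total RNA it was 1.07 and 0.82 in controls and 0.70 in both SMA libraries, a gap of −0.25. In early polysomal RNA it was 0.86 and 1.02 in controls and 0.45 and 0.84 in SMA, a gap of −0.29. Single libraries weighed on the smaller gaps: the early total gap was −0.12 without control replicate 1 and −0.37 without control replicate 2, the early polysomal gap was −0.095 without SMA replicate 1 and −0.49 without SMA replicate 2, and the late polysomal gap was −0.13 without SMA replicate 1. The basement membrane mean moved by between −0.165 and 0.02 between genotypes over the 4 comparisons, and the fibrillar mean by between −0.76 and −0.23.

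**Figure D3:**
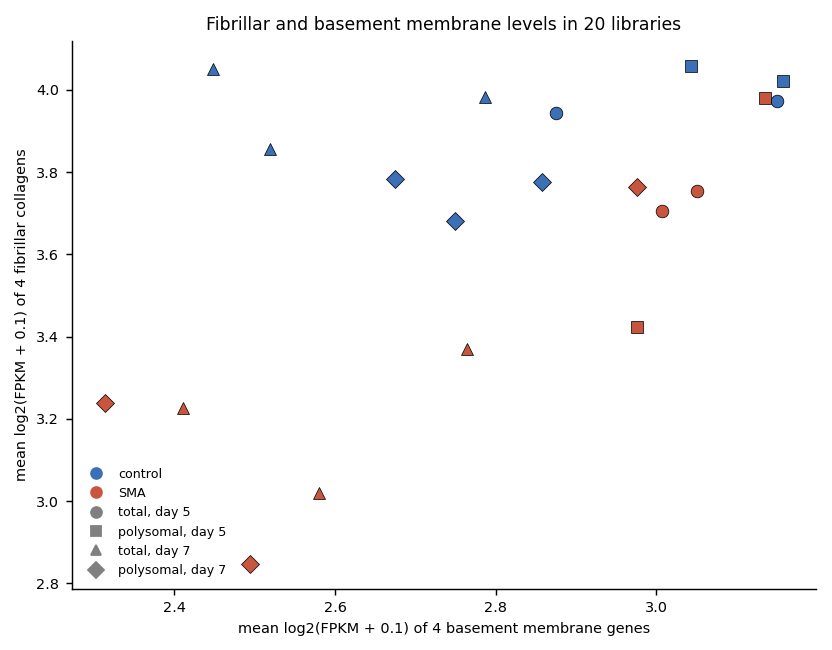
Mean log2(FPKM + 0.1) of the 4 fibrillar collagens (y axis) against that of the 4 basement membrane genes (x axis), one point per library, with controls in blue, SMA in red and the marker shape giving fraction and stage. The 3 late total SMA libraries lie between 3.02 and 3.37 on the y axis, below the controls at 3.86 to 4.05, at a like range on the x axis.

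Relative polysomal abundance was compared as the polysomal over the total FPKM. Each FPKM is scaled within its library, so this ratio is an enrichment relative to other genes and not the share of a transcript on polysomes. In late-symptomatic controls, Col1a1 was lower in polysomal than in total RNA, at 17.74 to 21.24 FPKM against 32.19 to 36.97 FPKM (log2 difference −0.83 ± 0.09, limma adjusted p = 0.011). Col1a2 was also lower, at 22.12 to 24.07 FPKM against 28.83 to 29.54 FPKM (−0.35 ± 0.04, limma adjusted p = 0.0151). These were 2 of 10 members, where 25.3% of genes passed. In late-symptomatic SMA brains the same difference was −0.26 ± 0.29 for Col1a1 and 0.05 ± 0.25 for Col1a2, and 0 of 10 members passed, where 29.6% of genes did. In early controls Col1a2 (0.19 ± 0.05, limma adjusted p = 0.168) and Sparc (0.23 ± 0.07, limma adjusted p = 0.168) were higher on polysomes, or 2 of 10 where 25.9% of genes passed. In early SMA brains 0 of 10 passed, where 12.6% did. Sparc gave a positive log2 difference in all 4 groups, from 0.21 to 0.28. In fits that block on replicate number, Sparc passed in late SMA brains (0.28 ± 0.04, limma adjusted p = 0.0496), where 35.6% of genes did, and in late controls (0.21 ± 0.05, limma adjusted p = 0.115), where 29.1% did. The calls of Col1a2 and Sparc in early controls were lost in that fit, where 20.5% of genes passed.

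**Figure D4:**
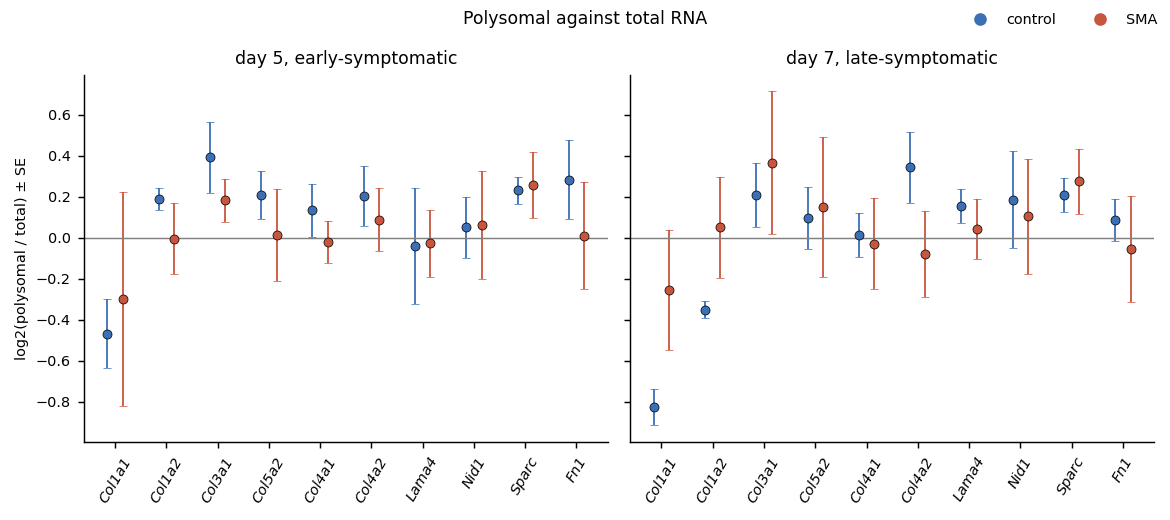
log2 of polysomal over total FPKM (y axis, ± SE) for the 10 genes (x axis) on day 5 (n = 2 per genotype) and day 7 (n = 3), with controls in blue and SMA in red. Col1a1 in day 7 controls lies lowest, at −0.83, with the SMA value at −0.26.

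The change in translation efficiency (TE), the genotype effect on that ratio, was tested directly. In the main fit, no member passed at either stage: 0 of 10 early, where 2.32% of genes did, and 0 of 10 late, where 2.07% did. At the late stage Col1a1 gave 0.57 ± 0.32 (limma adjusted p = 1.0), Col1a2 gave 0.40 ± 0.26 (limma adjusted p = 1.0) and Col4a2 gave −0.42 ± 0.28 (limma adjusted p = 1.0). At the early stage the 10 values lay between −0.27 and 0.17. This fit takes total and polysomal libraries as separate samples, and in a fit that blocks on replicate number, Col1a1 (0.57 ± 0.15) and Col1a2 (0.40 ± 0.10) passed at the late stage, with a limma adjusted p of 0.959 each, where 4.32% of genes passed. Without SMA late replicate 1 in both fractions, Col1a1 (0.69) and Col1a2 (0.45) passed. Without SMA late replicate 2, Col4a2 did (−0.64). Without SMA early replicate 2, which leaves 1 SMA library per fraction, Col1a2 gave −0.37.

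Between day 5 and day 7, fibrillar Col3a1 and the basement membrane genes Col4a1, Col4a2 and Lama4 had lower levels at the later age in both genotypes and both fractions. Mice of the 2 ages are different animals. The most abundant row was the small RNA Gm26377 in all 8 early libraries and other small RNAs in the 12 late ones. The labels name no batch, so age and any technical difference between the 2 sets of libraries cannot be told apart. Col3a1 in control polysomal RNA went from 32.61 and 33.65 FPKM to between 15 and 19.45 FPKM (log2 change −0.92 ± 0.13, limma adjusted p = 0.0246). In SMA total RNA it went from 25.93 and 22.36 FPKM to 9.88, 16.59 and 9.67 FPKM (−1.04 ± 0.29, limma adjusted p = 0.1). Col4a1 in control total RNA went from 10.33 and 9.87 FPKM to 7.31, 6.75 and 8.05 FPKM (−0.45 ± 0.10, limma adjusted p = 0.0466). Across the 4 comparisons Col3a1 gave log2 changes from −1.04 to −0.74, Col4a1 from −0.66 to −0.45, Col4a2 from −0.66 to −0.37 and Lama4 from −0.71 to −0.38. These are shared directions at different sizes, and not each passed the test in each comparison.

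The values of the type I collagen genes between ages are described here by gene, fraction and genotype. No fit compared the course between genes or between fractions. The difference in course between genotypes is the interaction given above. It passed in total RNA before adjustment only, and not in polysomal RNA (Col1a1 −0.21 ± 0.57, Col1a2 −0.13 ± 0.30). In control total RNA Col1a1 rose from 26.06 and 19.88 FPKM to 35.67, 36.97 and 32.19 FPKM (log2 change 0.61 ± 0.14, limma adjusted p = 0.0507), while in SMA total RNA it gave 0.00 ± 0.20 (limma adjusted p = 1.0). Col1a2 in control total RNA gave 0.06 ± 0.03 (limma adjusted p = 0.267), and in SMA total RNA it fell from 24.29 and 25.44 FPKM to 12.3, 16.62 and 18.34 FPKM (−0.67 ± 0.19, limma adjusted p = 0.106). In control polysomal RNA Col1a2 fell as well (−0.49 ± 0.06, limma adjusted p = 0.0212). Nid1 gave changes from −0.05 to 0.11 in the 4 comparisons and passed in none. Members called were 4 of 10 in control total RNA, where 40.3% of genes were, and 5 of 10 in control polysomal RNA, where 42% were. They were 6 of 10 in SMA total RNA, where 32.7% of genes were, and 1 of 10 in SMA polysomal RNA, where 41% were. The counts in controls were thus near the background, with shares from the fits on all libraries. Fits without a day 5 replicate leave 1 library at that age. The counts rested on single libraries: the control total count was 2 without day 5 replicate 2, and the control polysomal count was 2 without day 5 replicate 1 and 3 without day 7 replicate 2. The SMA total count was 1 without day 5 replicate 1, 2 without day 5 replicate 2, 3 without day 7 replicate 3 and 4 without day 7 replicate 1 or 2. The SMA polysomal count was 0 without day 5 replicate 1, 2 without day 7 replicate 1, and 5 without day 7 replicate 2, where Col3a1 (−1.11), Col4a1 (−0.87), Col4a2 (−0.76) and Fn1 (−0.76) passed beside Lama4.

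Other genes of collagen biosynthesis and of the matrix were examined as lists. Over all tested genes, the shares called lower and higher were 3.89% and 4.36% in early total, 6.82% and 5.65% in early polysomal, 4.7% and 4.84% in late total and 5.38% and 5.35% in late polysomal RNA, so 1 call in a list of 16 to 23 genes is near the background. Of 23 tested genes for collagen processing and crosslinking, 5 were lower and 1 higher in late total RNA, 6 were lower and 1 higher in late polysomal RNA, 1 was lower in early total RNA, and 3 were lower and 1 higher in early polysomal RNA. The list had a median log2 change of −0.16 in late total RNA, beside 0.00 over all tested genes. Serpinh1, which encodes the collagen chaperone HSP47, was lower in all 4 comparisons, from 23.97 ± 0.14 to 15.35 ± 2.26 FPKM in early total RNA (SD, n = 2, limma adjusted p = 0.551) and from 22.58 ± 3.21 to 16.50 ± 0.32 FPKM in late polysomal RNA (SD, n = 3, limma adjusted p = 0.297). Loxl2, a lysyl oxidase that crosslinks collagen, was lower in late total RNA (1.98 ± 0.14 against 1.27 ± 0.06 FPKM, log2 change −0.60 ± 0.08, limma adjusted p = 0.147) and in late polysomal RNA (−0.55 ± 0.11, limma adjusted p = 0.24). Loxl3 was lower in both polysomal comparisons, at −0.81 ± 0.18 early and −0.71 ± 0.22 late. Pcolce2, which encodes an enhancer of procollagen cleavage, was higher in late total RNA (0.57 ± 0.17), as was P4ha2, a prolyl hydroxylase subunit, in early polysomal RNA (0.76 ± 0.21).

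Of the 21 tested small leucine-rich proteoglycan and matricellular genes, 5 were lower and 1 was higher in late total RNA, and 4 were lower and 1 higher in late polysomal RNA. In early total RNA 4 were lower and 1 higher, and in early polysomal RNA 2 were lower and 1 higher, near the background. Lum, which encodes lumican, a proteoglycan that binds collagen fibres, was lower in all 4 comparisons, with log2 changes of −1.19 ± 0.17, −1.14 ± 0.14, −0.94 ± 0.11 and −0.76 ± 0.12 in early total, early polysomal, late total and late polysomal RNA. Decorin, encoded by Dcn, was lower in early total (−0.59 ± 0.15) and early polysomal RNA (−0.51 ± 0.15), and biglycan, encoded by Bgn, in late total (−0.64 ± 0.18) and late polysomal RNA (−0.51 ± 0.15). Mfap5, a microfibril gene, was lower in early total (−0.71 ± 0.23) and late total RNA (−0.93 ± 0.30), while the fibrillin gene Fbn1 was higher in early polysomal RNA (0.55 ± 0.12). Lum, Dcn and Ogn are also on the list of meningeal fibroblast markers used below.

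The remaining collagens and basement membrane genes gave calls mainly in early total RNA. Of the 10 tested genes for other fibrillar and interstitial collagens, 1 was higher and 0 were lower in early total, late total and late polysomal RNA, and 0 passed in early polysomal RNA. Those were Col2a1 (0.66 ± 0.19 early and 0.38 ± 0.12 late in total RNA) and Col6a3 (0.34 ± 0.12 in late polysomal RNA). Of 14 other basement membrane genes, 4 were higher in early total RNA, among them Col4a5 (0.44 ± 0.13), Hspg2 (0.44 ± 0.13) and Lama1 (0.39 ± 0.10), where 4.36% of all genes were called higher, and 0 passed in the other comparisons. Of 12 matrix receptors, Itga1, the collagen-binding integrin alpha chain, was lower in all 4 comparisons, from 1.91 ± 0.09 to 0.957 ± 0.055 FPKM in late polysomal RNA (log2 change −0.93 ± 0.07, limma adjusted p = 0.0441) and from 1.66 ± 0.03 to 0.903 ± 0.205 FPKM in late total RNA (−0.83 ± 0.15, limma adjusted p = 0.264). Itga3, a laminin receptor chain, was higher in late polysomal RNA (0.67 ± 0.16), Itga6 in early total RNA (0.23 ± 0.07), and Itga7 was lower in early polysomal RNA (−0.46 ± 0.14).

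Among 13 matrix protease and inhibitor genes, calls were all toward higher levels in SMA: 1 in early total RNA (Mmp16, 0.30 ± 0.10), 0 in early polysomal RNA, 2 in late total RNA and 2 in late polysomal RNA. These were the protease inhibitor genes Timp2 (0.14 ± 0.04 in total and 0.23 ± 0.09 in polysomal RNA), Timp3 (0.14 ± 0.05 in total RNA) and Timp4 (0.57 ± 0.12 in polysomal RNA). Of 16 genes of the TGF-beta axis, a pathway known to drive collagen transcription, 3 were lower in late total RNA and 2 lower with 1 higher in late polysomal RNA, while 1 was lower and 1 higher in early total RNA, near the background, and 2 were lower and 1 higher in early polysomal RNA. The co-receptor gene Eng was lower in all 4, from 6.26 ± 0.73 to 3.38 ± 0.71 FPKM in late total RNA (log2 change −0.88 ± 0.19, limma adjusted p = 0.299). The receptor gene Tgfbr2 was lower in both late comparisons (−0.46 ± 0.13 and −0.51 ± 0.14) and in early polysomal RNA (−0.46 ± 0.14). The ligand gene Tgfb2 was higher in late polysomal RNA (0.23 ± 0.07), Smad3 in early polysomal RNA (0.48 ± 0.14) and Tgfbr3 in early total RNA (0.47 ± 0.12), and the TGF-beta-induced matrix gene Tgfbi was lower in late total RNA (−0.34 ± 0.11).

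Markers of cells that make these matrices were counted in the same libraries. Of 13 endothelial markers, 10, 8, 9 and 10 were lower in SMA in early total, early polysomal, late total and late polysomal RNA, and 1 was higher in late total RNA. Their summed level in late total RNA was 113.9 ± 12.4 FPKM in controls and 87.6 ± 3.14 FPKM in SMA (SD, n = 3), and Cldn5, the gene with the highest median over the 20 libraries, went from 25.96, 30.1 and 34.46 FPKM to 14.09, 15.46 and 14.22 FPKM. Of 8 tested pericyte markers, 4, 3, 6 and 6 were lower, and 1 was higher in early total RNA. The sum over all 10 listed pericyte markers in late total RNA was 80.52 ± 4.44 FPKM in controls and 49.43 ± 3.39 FPKM in SMA. Rgs5, the one with the highest median, had 32.14, 32.3 and 34.06 FPKM against 12.99, 15.79 and 13.09 FPKM. Of 3 tested vascular smooth muscle markers, 0, 2, 2 and 3 were lower. No endothelial or pericyte marker was at 0 in any library. At the late stage most tested markers of each of these vascular lists were called lower, with 1 endothelial marker higher in late total RNA. These were the same libraries in which type I collagen, Lama4 and Fn1 were lower. On day 5 the endothelial sum was lower in SMA as well, at 86.75 ± 1.73 against 150.6 ± 2.76 FPKM in total RNA and 97.53 ± 9.57 against 189.6 ± 40.2 FPKM in polysomal RNA (SD, n = 2), and so was the pericyte sum, at 56.09 ± 1.14 against 83.61 ± 1.66 FPKM in total RNA. The day 5 values of the 10 members are given above. The part of vascular cells in the matrix results was not tested.

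Meningeal fibroblast markers moved both ways. Of 13 tested, 3 were lower and 4 higher in late total RNA and again in late polysomal RNA, 4 were lower and 1 higher in early total RNA, and 3 were lower and 1 higher in early polysomal RNA. The sum over all 15 was 193.5 ± 20.7 FPKM in controls and 197.0 ± 11.4 FPKM in SMA in late total RNA, where Igf2, the one with the highest median, had 75.73, 70.89 and 85.88 FPKM against 58.08, 74.73 and 78.64 FPKM. Much of the sum came from Igf2, Pdgfra and Zic1, with medians of 75.94, 28.57 and 27.78 FPKM over the 20 libraries. Whether these genes come only from meningeal cells in a whole brain was not tested. Lower in late total RNA were the matrix genes Lum, Dcn and Ogn, and higher were the enzyme and transporter genes Aldh1a2, Slc6a13 and Slc22a6 and the matrix gene Mgp. Foxc2 was at 0 in 2 libraries, both of them early polysomal controls. Choroid plexus markers were higher in late SMA, with 5 of 6 tested called in total RNA and 4 of 6 in polysomal RNA. The sum over all 7 listed went from 401.8 ± 17.2 to 736.6 ± 89.6 FPKM in total RNA. Of 6 blood markers, 1 was lower in early total and 1 in late polysomal RNA, and 0 in the other comparisons. Of 6 microglial markers, 2 were higher and 1 lower in late total RNA, and of 6 neuronal markers, 1 was higher. Tubb3 of the neuronal list and Acta1 of the skeletal muscle list were each listed at 0 in the same 2 libraries, the early polysomal controls. The median of Tubb3 over the 20 libraries was 777.7 FPKM, so early polysomal comparisons of these 2 genes and of sums that hold them are not reliable. The cause of these zeros was not tested. Of the 9 muscle markers, 2 could be tested.

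Osteoblast genes, which mark cells that make much type I collagen, were present at a low level. Of 12 bone and cartilage markers, 2 had a mean of at least 1 FPKM, and 0 of these passed in any comparison. The sum of the 12 in late total RNA was 9.003 ± 1.65 FPKM in controls and 5.687 ± 1.2 FPKM in SMA. In late polysomal RNA the sum of the 12 overlapped between genotypes, at 6.95 ± 0.157 FPKM in controls and 6.07 ± 0.93 FPKM in SMA. Alpl, the gene with the highest median of the list, overlapped between genotypes in late total RNA, at 2.14 to 2.71 FPKM in controls and 1.48 to 3.49 FPKM in SMA, and had 2.41, 2.09 and 2.96 FPKM against 2.51, 2.46 and 4.16 FPKM in late polysomal RNA. Bglap2 was at 0 in 5 libraries and Bglap and Sost in 1 each. The osteocalcin gene Bglap had 3.31, 2.87 and 0.9 FPKM in late total RNA of controls and 0.17, 0.3 and 0.5 FPKM in SMA. Ibsp, which encodes bone sialoprotein, had 0.44, 0.62 and 0.58 FPKM against 0.27, 0.15 and 0.17 FPKM, and the osteoblast transcription factor gene Sp7 had 0.25, 0.32 and 0.32 FPKM against 0.13, 0.2 and 0.12 FPKM. All 3 were higher in each late total control than in each SMA library. The sum of Bglap, Bglap2, Ibsp, Sp7 and Dmp1, chosen from the list after their values were seen, was 4.24 ± 1.77 FPKM in late total controls, 0.977 ± 0.239 FPKM in late total SMA, 2.03 ± 0.681 FPKM in late polysomal controls and 0.693 ± 0.12 FPKM in late polysomal SMA. The sum of these 5 selected genes was lower in SMA at the late stage in both fractions, as Col1a1 was. Because the genes were selected on these values, that match is a description and no separate evidence. The sum of all 12 was lower without overlap only in late total RNA. On day 5 the genotypes overlapped: the sum was 1.72 and 1.19 FPKM in total RNA of controls and 0.53 and 3.75 FPKM in SMA, and 1.08 and 1.35 FPKM against 0.43 and 3.56 FPKM in polysomal RNA. In early total RNA, SMA replicate 2 had 2.43 FPKM of Ibsp beside 15.21 FPKM of Col1a1, and SMA replicate 1 had 0.28 and 13.15 FPKM. Controls there had 0.31 and 0.39 FPKM of Ibsp beside 26.06 and 19.88 FPKM of Col1a1. In early polysomal RNA, SMA replicate 2 had 2.46 FPKM of Ibsp and 18.19 FPKM of Col1a1, and SMA replicate 1 had 0.09 and 7.22 FPKM. Controls of that fraction had 0.15 and 0.35 FPKM of Ibsp beside 15.7 and 17.17 FPKM of Col1a1. The part of bone-forming cells, or of bone carried over with the brain, in the type I collagen values was not tested.

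**Figure D5:**
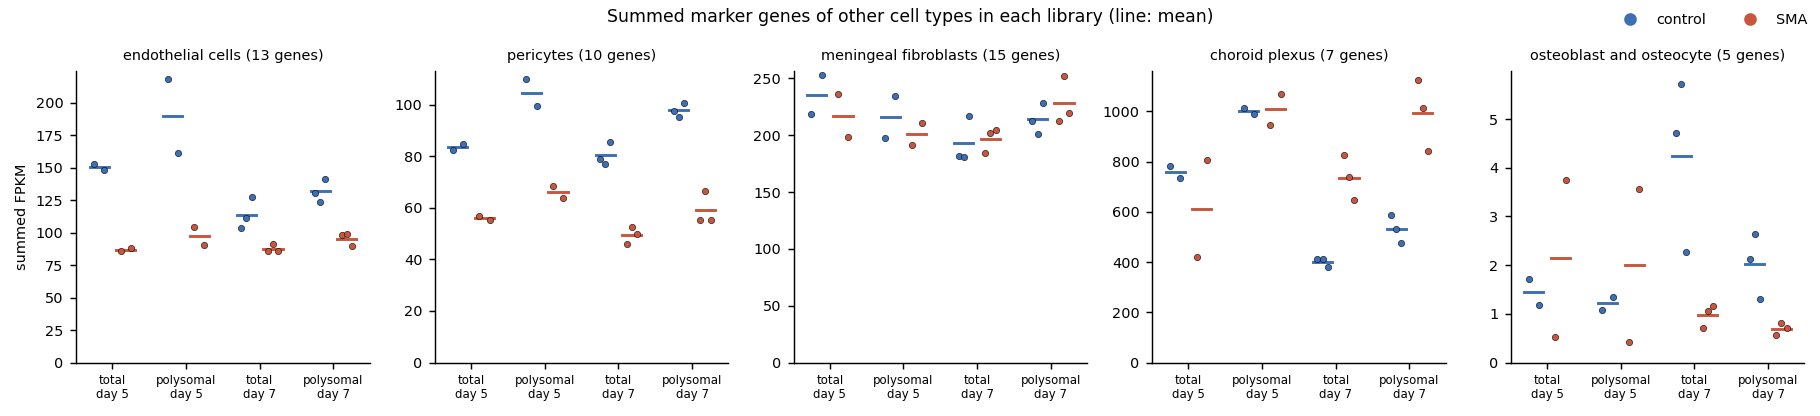
Summed FPKM (y axis) of marker genes of endothelial cells, pericytes, meningeal fibroblasts, choroid plexus and osteoblasts or osteocytes in each library, by fraction and stage (x axis), with controls in blue, SMA in red and lines at the means. The osteoblast panel sums only Bglap, Bglap2, Ibsp, Sp7 and Dmp1, chosen after their values were seen, while the other panels sum whole lists. The sum of the whole bone and cartilage list overlapped between genotypes in late polysomal RNA. Pericyte sums of late total RNA lie at 77.19 to 85.57 FPKM in controls and 45.89 to 52.65 FPKM in SMA, while meningeal sums overlap.

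The genes whose levels ran most like each set of members were ranked over the 20 libraries, among 13000 protein-coding genes above 0 in every library. The mean log2 profile of the 4 fibrillar collagens was most like those of Kdr (Pearson r = 0.83), Abcc9 (0.81), Pdgfrb (0.81), Robo4 (0.80) and Mfsd7c (0.80). Kdr and Robo4 encode receptors of endothelial cells, and Abcc9 and Pdgfrb are on the pericyte marker list. The mean profile of the 4 basement membrane genes was most like those of Vim (0.93), Col18a1 (0.92), Tnc (0.91), Chst3 (0.91) and Adamts12 (0.90). Vim encodes the intermediate filament vimentin, Col18a1 a basement membrane collagen, Tnc the matrix glycoprotein tenascin C and Adamts12 a matrix protease. The libraries share stages, fractions and genotypes, so these are descriptions with no test.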

How the data were processed

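RNA from all pooled sucrose fractions (total) or polysomal fractions of mouse brain was sequenced from stranded total RNA libraries. The authors aligned reads with TopHat2 2.0.14 to GRCm38.p4 and computed FPKM values with Cufflinks 2.2.1, and deposited 1 table of FPKM for 45700 genes and 20 libraries at 2 decimals. Counts were not analysed here, so depth per value is unknown. Values were tested as log2(FPKM + 0.1), which understates changes of low genes, over the 15247 genes whose mean reached 1 FPKM. Each comparison was a separate limma 3.58.1 fit (R 4.3.3) with a variance trend, and p-values were adjusted by Benjamini-Hochberg over all 15247 genes. A call is an unadjusted p under 0.05. With 2 against 2 or 3 against 3 brains, an exact two-sided permutation test cannot go below 0.333 or 0.1. A test of the fit on simulated data is not reported here, and no support is drawn from it.

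Members and gene lists were chosen with earlier results of these data known. All members are described in full. From other matrix lists, up to 3 genes per comparison are named, by size of change among called genes without overlap or zeros; Lama1 and the bone genes were named after their values were seen. The result of 1 listed gene is not reported here. Alternatives were another pseudocount, no filter, median scaling, quantile normalization, a transcript-length correction, 1 model over all libraries, no trend, adjusted p, the replicate number as a block and leaving out each library.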

Additional observations from a re-analysis of the deposited data

Results flagged for a closer look

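An interaction test of the genotype effect between stages passed for 3 members before adjustment, which is near the background. In total RNA the difference of log2 changes, late minus early, was −0.61 for Col1a1 (−1.29 late against −0.68 early) and −0.73 for Col1a2 (−0.91 late against −0.18 early). In polysomal RNA it was 0.48 for Sparc (0.39 late against −0.09 early). Limma p-values were 0.0487, 0.00893 and 0.0411, and adjusted p-values were 0.486, 0.486 and 0.355, so none passed after adjustment over 15247 genes. These are 2 of 10 members in total and 1 of 10 in polysomal RNA, where 10.1% and 13.7% of all genes passed. The call of Col1a1 was lost in 7 of 8 other settings (−0.61 to −0.45), that of Sparc in 3 of 8 (0.35 to 0.52), and that of Col1a2 in 0 of 8 (−0.73 to −0.60). Groups of 2 or 3 libraries are too small for a test of single outlying libraries.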

How the results depend on the processing

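No value of a member reversed in direction while called: of 2100 member values under alternatives, 1910 kept their side of the threshold, 116 lost it, 74 gained it, and 133 uncalled values changed sign. Fibrillar minus basement membrane differences moved by less than 1 SD, and without single libraries they ranged from −0.37 to −0.12 in early total, −0.49 to −0.10 in early polysomal, −0.86 to −0.65 in late total and −0.42 to −0.13 in late polysomal RNA. Late total calls of Col1a1, Col1a2 and Lama4 and the late polysomal call of Lama4 were kept under all alternatives on unadjusted p.

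At an adjusted p under 0.05, members called fell to 0 in all 4 comparisons of SMA with controls, to 1 and 2 between ages in control total and polysomal RNA, to 0 in SMA, to 0 for polysomal against total RNA in early controls, and to 0 for both interactions. All genes called then numbered 25, 99, 17 and 14 in the 4 genotype comparisons, against 1258, 1902, 1454 and 1637 unadjusted. Without the filter on low values, members called were 2 in early total, 3 in late polysomal and 1 in the total interaction. All genes called there numbered 2907, 2546 and 2799, out of a larger set than the 15247. The length correction gave 2 in early total and 3 in early polysomal RNA, 3 between ages in SMA polysomal RNA, 0 and 1 for polysomal against total RNA in early controls and SMA, and 0 in the polysomal interaction. It called 1150, 1533, 6409, 4233, 2220 and 1386 of the 15247 genes in these fits. The single model over 20 libraries gave 0 in both early genotype comparisons (where it called 19.8% and 25% of all genes) and 7 between ages in SMA polysomal RNA (where it called 41.1% of all genes). For polysomal against total RNA it gave 0, 1 and 1 in early controls, late controls and late SMA, where it called 36.7%, 24.2% and 26.5% of all genes. Between ages in SMA polysomal RNA a pseudocount of 1 gave 2, equal medians 3 and quantile normalization 2. Quantile normalization gave 1 for polysomal against total RNA in early controls, and 1 and 0 in the interactions. All genes called in these fits numbered 6357, 6259, 6304, 4074, 1560 and 2120. The cause of these shifts in member counts was not tested. Fits that leave out 1 library, above and below, come without the share of all genes called. Their counts therefore cannot be set against a background. In comparisons with early libraries, some of these fits leave 1 library in a group.

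Leaving out single libraries gave 0 to 1 and 0 to 2 members called in early total and polysomal RNA, 4 to 6 and 1 to 7 in late total and polysomal RNA, 0 to 1 and 0 to 2 for TE early and late, 2 to 4 and 2 to 5 between ages in controls, 1 to 4 and 0 to 5 in SMA (total, then polysomal), 2 to 3 and 0 to 1 for late polysomal against total RNA in controls and SMA, and 1 to 3 and 0 to 1 for the interactions.

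Labels do not say that total and polysomal libraries with one number came from one brain. Their deviations from group means correlated at −0.04 to 0.11 over all tested genes and at 0.12 to 0.54 over 9779 protein-coding genes with at least 5 FPKM. Over all tested genes, late SMA libraries correlated more with the same number than with any other number, and late controls did not. These values do not settle whether the libraries are paired. The main fits took them as separate samples, which ignores a pairing if there was one. With the replicate block, members called were 0 in early total RNA, where 4.77% of all genes were. They were 2 for late TE (Col1a1 at 0.57 and Col1a2 at 0.40), where 4.32% were, and 2 between ages in SMA total RNA, where 15.2% were. For polysomal against total RNA they were 0 in early controls and 1 in late SMA, where 20.5% and 35.6% were. In the total and polysomal interactions they were 1 and 0, where 8.92% and 15% were. With the length correction added, they were 2 for late TE, and 1 and 1 for those fractions in early controls and late SMA. All genes called then numbered 620, 3938 and 5186 of 15247.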
